A study of Mus musculus with 18 samples.

Results

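The genes described here are 10 genes of absorptive enterocytes, the cells that line the gut and take up nutrients. They were found by symbol among the 33977 genes of the deposited table, and all 10 were present. They are 5 genes of lipid handling (Fabp1, Fabp2, Apoa1, Apoa4 and Cyp4f14), 2 hydrolases of the brush border (Alpi and Anpep) and 3 transporters (Slc13a1, Slc5a1 and Slc15a1). They were chosen by levels measured in these libraries, their differences between libraries and groups, so their levels by library are a description and carry no test. The data are poly(A) RNA sequencing of colon tissue from ICR mice, an outbred strain, in 18 libraries. Every mouse was treated for 44 days: with saline as the control, with a compound Suanzaoren capsule made from jujube kernel by gavage, or with Jinhua Hecha, a green tea that has been fermented, also by gavage. Titles carry a letter, C or X, that the labels do not explain, which gives 6 groups of 3 libraries: NCC and NCX (saline), FFZRC and FFZRX (capsule), JHHCGC and JHHCGX (tea). Libraries are called here by the name in their title. The labels give no age and no sex. The design text counts 3 mice for a treatment where 6 libraries were present, and nothing ties a library to a mouse, so the p-values reflect only how far these libraries spread and may be technical in part.

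Absorptive enterocytes carry a brush border of microvilli set with digestive enzymes and transporters. Dietary fat is taken up as fatty acids and monoglycerides, bound in the cell by fatty acid binding proteins, rebuilt into triglyceride and exported on apolipoproteins, while sugars and short peptides enter through sodium- and proton-coupled carriers. Most of this work is done in the small intestine; colonocytes mainly absorb water, salt and the short-chain fatty acids made by bacteria, and the level of many absorptive genes differs along the length of the gut.

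The colon libraries showed the 10 genes to differ in behaviour. Fabp2, Alpi, Cyp4f14 and Slc13a1 ranged over 43.9-fold to 299.8-fold between libraries, and were high together in a few libraries drawn from 5 of the 6 groups. Anpep ran the other way. Slc5a1 and Slc15a1, the carriers for glucose and peptides, were present in every library at 14.1 to 87.1 FPKM and varied by 2.88-fold to 4.72-fold. Fabp1, Apoa1 and Apoa4 were at or near 0. FPKM is a level per gene length: reads scaled by the length of the transcript and by the total reads of the library. None of the 10 genes passed edgeR's test for the tea or the capsule in a fit without a covariate. DESeq2 called 1 carrier in each of 2 tea comparisons, and in the averaged tea comparison edgeR called Anpep with the mitochondrial share as a covariate, and Cyp4f14 and Alpi with Hoxb13.

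The promoters of Fabp2, Alpi and Anpep are shown because the first 2 genes ordered the libraries almost alike and the third nearly the other way. Each is the 250 bases before the gene's start, 5′ to 3′ on the gene's own strand, from RefSeq on GRCm38.p6, and capitals mark matches to the motifs named below.
Fabp2, chr3:122894822-122895071, plus strand: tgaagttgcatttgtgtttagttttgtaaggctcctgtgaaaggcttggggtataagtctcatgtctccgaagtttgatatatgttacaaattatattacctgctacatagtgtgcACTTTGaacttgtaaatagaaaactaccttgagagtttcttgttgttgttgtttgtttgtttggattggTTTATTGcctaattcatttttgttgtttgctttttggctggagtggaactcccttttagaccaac
Alpi, chr1:87101607-87101856, minus strand: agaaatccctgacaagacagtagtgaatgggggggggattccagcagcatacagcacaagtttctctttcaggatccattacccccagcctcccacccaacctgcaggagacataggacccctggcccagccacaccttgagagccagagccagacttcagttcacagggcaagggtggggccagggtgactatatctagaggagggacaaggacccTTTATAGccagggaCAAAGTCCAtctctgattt
Anpep, chr7:79848211-79848460, minus strand: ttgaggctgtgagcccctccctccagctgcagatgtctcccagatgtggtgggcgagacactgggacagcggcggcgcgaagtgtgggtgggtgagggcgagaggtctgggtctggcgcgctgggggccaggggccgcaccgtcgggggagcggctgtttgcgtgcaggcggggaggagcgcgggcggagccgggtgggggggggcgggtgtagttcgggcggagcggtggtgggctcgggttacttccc
Both strands were searched for CAAAGT, the core of the site of HNF4, a nuclear receptor of enterocytes, and for its longer form CAAAGTCCA. They were also searched for TTTATNG, the site of the homeobox factor CDX2. Further motifs were AGATAA, bound by zinc finger factors of the gut, and 2 sites of 13 letters, the palindrome of HNF1 and a direct repeat read by nuclear receptors. In the Alpi promoter TTTATNG lay 33 to 27 bases before the start and CAAAGTCCA, which holds CAAAGT, 19 to 11 bases before it. In the Fabp2 promoter TTTATNG lay 65 to 59 bases before the start, and CAAAGT lay farther upstream on the other strand. The Anpep window held none of these letters. Among 32851 RefSeq promoter windows of that length, 12.6% held CAAAGT, 0.384% CAAAGTCCA, 9.81% TTTATNG, 9.99% AGATAA, 0.0335% the direct repeat and 0.00913% the HNF1 palindrome. Of the 9 members with a RefSeq window, CAAAGT was found in 4 (Alpi, Apoa4, Fabp2 and Slc15a1) and TTTATNG in 3 (Alpi, Fabp1 and Fabp2), and AGATAA and both 13-letter motifs in 0. The 9 were all but Slc13a1. A match describes letters and not a bound site.

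Depth was 59206980 to 76830278 counts a library. Transcripts encoded by the mitochondrial genome took 5.48% to 24.88% of the counts, and 6 libraries had 12% or more: libraries NCC_17, FFZRC_24, JHHCGC_48, NCX_134, NCX_147 and JHHCGX_256. Epcam, a marker of all gut epithelium, stood at 482 to 967 FPKM. Set C and set X differed in Xist, the RNA of the inactive X chromosome, at 10.5 to 27.6 FPKM in set C and 0.042 to 0.507 in set X, and in the Y-linked Ddx3y, at 0.044 to 0.746 in set C and 2.89 to 10.2 in set X. This is the pattern of females in all 9 libraries of set C and of males in all 9 of set X. A contrast of the sets is thus also one of these patterns, and an average over both sets pools them. Transcripts foreign to the colon also differed: Sftpc, a lung surfactant gene, was listed at 0 in 7 libraries and reached 96.7 FPKM, and Col2a1, a cartilage collagen, was listed at 0 in 12 and reached 8.86. These did not order the libraries as Fabp2 did (rho with Fabp2 0.09 for Sftpc and -0.17 for Col2a1 over 18 libraries). In set C they did follow the groups. Col2a1 was 8.02 to 8.31 FPKM in saline libraries, at most 0.032 in capsule libraries and 0 in tea libraries. Sftpc was 56.3 to 74.2 FPKM in saline, 0 in capsule and 25.9 to 42.9 in tea libraries. In set X both were high in saline library NCX_124 and 0 in saline libraries NCX_134 and NCX_147.

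Fabp2, the intestinal fatty acid binding protein (chr3:122895072-122899506, plus strand, GRCm38), was the member with the highest single value. In the saline libraries NCC_2, NCC_8 and NCC_17 of set C it stood at 17.6, 41.9 and 615 FPKM, in the capsule libraries FFZRC_5, FFZRC_12 and FFZRC_24 of that set at 27.1, 35.5 and 434, and in the tea libraries JHHCGC_7, JHHCGC_19 and JHHCGC_48 at 31.9, 30.7 and 775. One library in each of these groups was therefore more than 10 times the other 2. In set X it was 55.3, 49.3 and 486 FPKM in saline libraries NCX_124, NCX_134 and NCX_147, 82.0, 334 and 56.9 in capsule libraries FFZRX_139, FFZRX_238 and FFZRX_268, and 135, 39.5 and 86.4 in tea libraries JHHCGX_129, JHHCGX_148 and JHHCGX_256. The 5 highest libraries came from all groups but the tea group of set X, which had a mean of 87.0 ± 47.8 FPKM (SD, n = 3). The group means ran from there to 279 ± 429 in the tea group of set C (SD, n = 3), with the saline group of set C second at 225 ± 338 and each neighbour in the order overlapping the next.

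Cyp4f14, a cytochrome P450 that hydroxylates leukotriene B4 and fatty acids (chr17:32905070-32917342, minus strand), had the widest range of the members, 0.416 to 124.6 FPKM. It was 2.97, 1.14 and 35.7 FPKM in saline libraries NCC_2, NCC_8 and NCC_17, 0.416, 0.915 and 19.6 in capsule libraries FFZRC_5, FFZRC_12 and FFZRC_24, and 0.778, 9.80 and 124.6 in tea libraries JHHCGC_7, JHHCGC_19 and JHHCGC_48. In set X saline libraries NCX_124, NCX_134 and NCX_147 held 0.948, 17.3 and 39.8 FPKM, capsule libraries FFZRX_139, FFZRX_238 and FFZRX_268 held 2.17, 83.2 and 3.44, and tea libraries JHHCGX_129, JHHCGX_148 and JHHCGX_256 held 5.64, 1.10 and 44.6. Libraries NCX_134 and JHHCGX_256 were high for Cyp4f14 but not for Fabp2. Cyp4f14 has close relatives in the same family, and the sources used here do not say how shared reads were counted.

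Fabp1, the liver form of the fatty acid binding protein, and the apolipoproteins Apoa1 and Apoa4, which coat chylomicrons and high-density lipoprotein, are strong genes of the upper small intestine and were near absent here. Fabp1 (chr6:71199827-71205023) had counts in 3 of 18 libraries: 38 counts in library NCC_17, and 12 each in libraries FFZRC_12 and JHHCGC_7. Apoa1 (chr9:46228580-46230466) had 0 counts in 8 libraries and at most 84, in library NCC_17. Apoa4, its neighbour on chromosome 9 (46240696 to 46243459), had 0 counts in 8 libraries and at most 97, in library FFZRC_12. The highest level of any of the 3 was 1.05 FPKM. A count of 0 allows up to 3 counts, or 0.039 to 0.0507 CPM, counts scaled to a common library total, at these depths, and this limit covers counting error only. In set C Apoa1 had 26, 9 and 84 counts in saline libraries NCC_2, NCC_8 and NCC_17 and 0 in all 3 tea libraries. Capsule libraries FFZRC_5, FFZRC_12 and FFZRC_24 held 0, 72 and 0. A separation of tea from saline in set C, in either direction, was seen in 7.65% of the 13182 genes with a mean of at least 1 FPKM. Apoa1 is below that level. In set X the tea libraries held 17, 5 and 0 Apoa1 counts and the saline libraries 0, 5 and 12. Library NCC_17, which had the most Fabp1 and Apoa1 counts, was also second for Fabp2.

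Alpi, the intestinal alkaline phosphatase, which removes phosphate from bacterial lipopolysaccharide (chr1:87098002-87101606, minus strand), followed Fabp2. It was 1.16, 1.88 and 42.0 FPKM in saline libraries NCC_2, NCC_8 and NCC_17, 0.918, 1.37 and 21.3 in capsule libraries FFZRC_5, FFZRC_12 and FFZRC_24, and 0.601, 1.43 and 56.1 in tea libraries JHHCGC_7, JHHCGC_19 and JHHCGC_48. In set X it was 1.12, 1.88 and 16.3 FPKM in saline libraries NCX_124, NCX_134 and NCX_147, 4.36, 15.8 and 5.80 in capsule libraries FFZRX_139, FFZRX_238 and FFZRX_268, and 12.1, 4.44 and 8.45 in tea libraries JHHCGX_129, JHHCGX_148 and JHHCGX_256. The treated libraries of set X therefore lay between the low and the high libraries of set C. Alpi has close copies among the alkaline phosphatase genes, so its counts are uncertain to that degree; the duodenal copy Akp3 had 0 counts in 17 of 18 libraries.

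Anpep, aminopeptidase N, which trims amino acids from peptides at the brush border (chr7:79821803-79848210, minus strand), was low in the libraries where Alpi was high. Saline libraries NCC_2, NCC_8 and NCC_17 held 3.69, 4.74 and 1.52 FPKM, capsule libraries FFZRC_5, FFZRC_12 and FFZRC_24 held 6.22, 5.30 and 0.873, and tea libraries JHHCGC_7, JHHCGC_19 and JHHCGC_48 held 3.06, 2.52 and 0.725. Set X held 3.72, 1.57 and 1.33 FPKM in saline libraries NCX_124, NCX_134 and NCX_147, 3.69, 2.42 and 1.42 in capsule libraries FFZRX_139, FFZRX_238 and FFZRX_268, and 1.75, 2.51 and 1.26 in tea libraries JHHCGX_129, JHHCGX_148 and JHHCGX_256. The lowest library of the 3 in every set C group was the one with the highest Alpi. The 2 hydrolases thus ran in opposite directions.

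Slc13a1, the sodium-coupled sulfate carrier (chr6:24088283-24168092, minus strand), was the lowest transporter and behaved as Cyp4f14 did. It was 0.895, 0.330 and 11.1 FPKM in saline libraries NCC_2, NCC_8 and NCC_17, 0.171, 0.192 and 9.04 in capsule libraries FFZRC_5, FFZRC_12 and FFZRC_24, and 0.201, 3.77 and 14.4 in tea libraries JHHCGC_7, JHHCGC_19 and JHHCGC_48. In set X it was 0.399, 2.20 and 6.56 FPKM in saline libraries NCX_124, NCX_134 and NCX_147, 0.272, 5.42 and 1.63 in capsule libraries FFZRX_139, FFZRX_238 and FFZRX_268, and 1.22, 0.445 and 1.43 in tea libraries JHHCGX_129, JHHCGX_148 and JHHCGX_256. In tea library JHHCGC_19, with a mitochondrial share of 5.68%, both Slc13a1 and Cyp4f14 were above the other libraries under 9%, while Fabp2 and Alpi were not.

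Slc5a1, the sodium-glucose carrier SGLT1 (chr5:33104219-33162870, plus strand), was even by comparison. It was 32.8, 46.7 and 36.7 FPKM in saline libraries NCC_2, NCC_8 and NCC_17, 55.8, 58.7 and 33.4 in capsule libraries FFZRC_5, FFZRC_12 and FFZRC_24, and 42.7, 66.6 and 38.0 in tea libraries JHHCGC_7, JHHCGC_19 and JHHCGC_48. In set X it was 39.2, 30.3 and 14.1 FPKM in saline libraries NCX_124, NCX_134 and NCX_147, 54.1, 40.4 and 48 in capsule libraries FFZRX_139, FFZRX_238 and FFZRX_268, and 41.4, 43.5 and 61.0 in tea libraries JHHCGX_129, JHHCGX_148 and JHHCGX_256. The saline libraries of set X lay below every treated library of that set, and in set C the groups overlapped. Library NCX_147 alone was far below the rest; it also had the lowest summed level of 7 epithelial markers, 2872 against a median of 6106 FPKM, and the highest of 8 smooth muscle markers, 13211 against a median of 3535.

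Slc15a1, the peptide carrier PepT1 (chr14:121459621-121505252, minus strand), had the narrowest range. It was 65.6, 46.8 and 42.7 FPKM in saline libraries NCC_2, NCC_8 and NCC_17, 63.5, 60.3 and 57.5 in capsule libraries FFZRC_5, FFZRC_12 and FFZRC_24, and 53.3, 61.4 and 53.6 in tea libraries JHHCGC_7, JHHCGC_19 and JHHCGC_48. In set X it was 47.8, 47.2 and 30.2 FPKM in saline libraries NCX_124, NCX_134 and NCX_147, 50.2, 52.5 and 69.1 in capsule libraries FFZRX_139, FFZRX_238 and FFZRX_268, and 52.6, 87.1 and 85.2 in tea libraries JHHCGX_129, JHHCGX_148 and JHHCGX_256. The tea group of set X had the highest mean, 75.0 ± 19.4 FPKM, and the saline group of set X the lowest, 41.7 ± 9.99 (SD, n = 3 each). As with Slc5a1, all saline libraries of set X lay below all treated ones in FPKM. By CPM scaled with TMM, the scaling of the tests, this did not hold for Slc15a1 and the capsule. Saline library NCX_134 was then at 259, above capsule library FFZRX_139 at 231. A separation of tea from saline in set X, in either direction, was seen in 22.0% of the 13182 genes with a mean of at least 1 FPKM, and that of the capsule from saline in 12.5%.

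**Figure D1:**
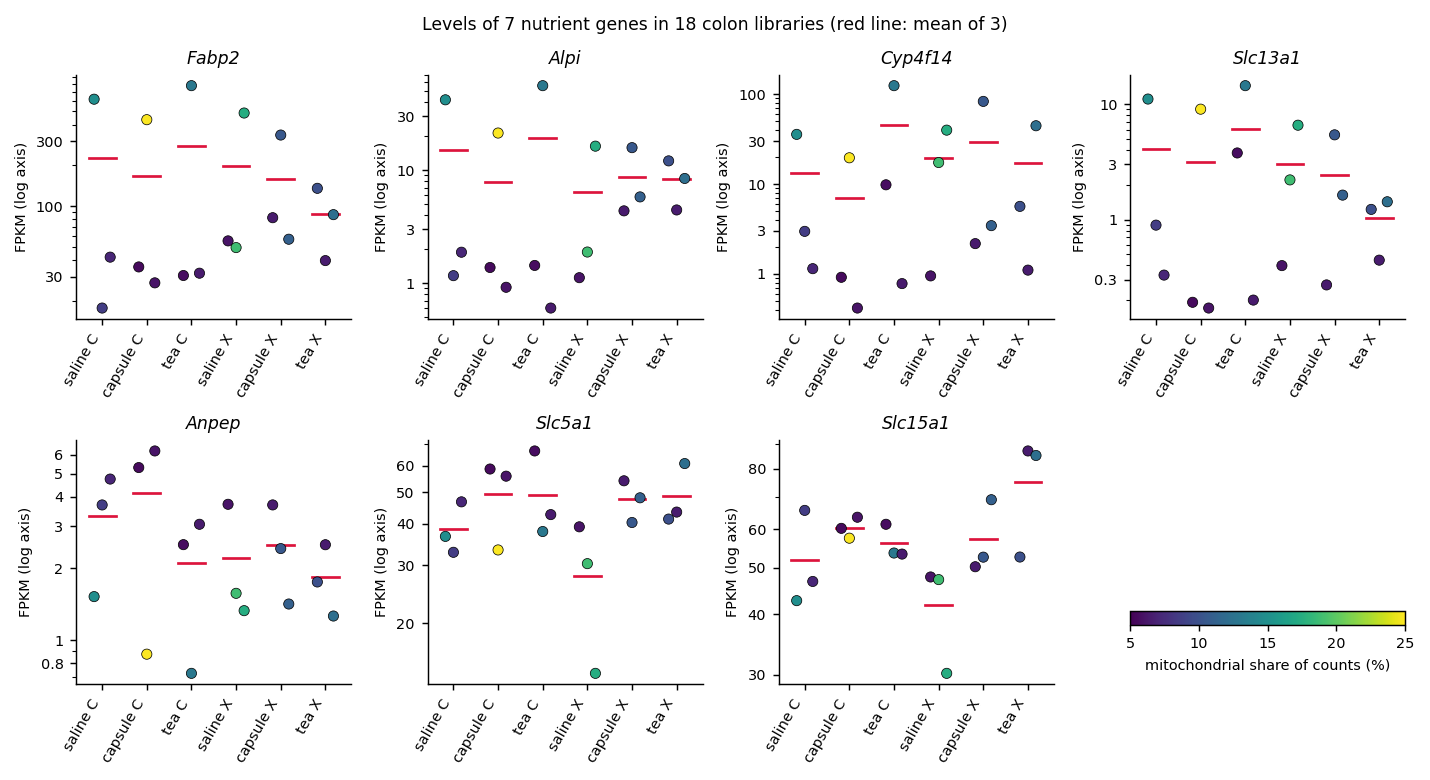
FPKM (log axis) of the 7 members with a median of at least 1 FPKM, in 6 groups of 3 libraries; each point is a library, its colour is the mitochondrial share of counts and the red line is the group mean. In each set C group 1 library stands far above the others for Fabp2 and Alpi and below them for Anpep, while Slc15a1 stays between 30.2 and 87.1 FPKM.

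The spread of these genes was set beside that of all 13182 genes with a mean of at least 1 FPKM, whose highest library exceeded the lowest by a median of 3.23-fold. The highest over the lowest library was 299.8-fold for Cyp4f14, 93.4-fold for Alpi, 84.4-fold for Slc13a1, 43.9-fold for Fabp2, 8.58-fold for Anpep, 4.72-fold for Slc5a1 and 2.88-fold for Slc15a1. By the SD of log2(FPKM + 1), Cyp4f14 varied more than 99.8% of those genes, Fabp2 more than 99.3%, Alpi more than 99.0%, Slc13a1 more than 97.7%, Anpep more than 82.6%, Slc5a1 more than 71.5% and Slc15a1 more than 46.4%. The members were chosen by their differences between these same libraries, so a wide spread follows from that choice and is no finding about them. When the group means of each of the 7 genes were put in order, all 35 pairs of neighbouring groups overlapped in the range of their libraries.

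Rank correlations over the 18 libraries show which genes kept the same order. Fabp2 and Alpi had a rho of 0.91, and so had Cyp4f14 and Slc13a1; across these 2 pairs rho was 0.73 to 0.85. Anpep was opposed to all 4, with a rho of -0.75 with Fabp2, -0.83 with Alpi, -0.83 with Cyp4f14 and -0.86 with Slc13a1. Slc5a1 and Slc15a1 were related to each other at 0.51 and to Fabp2 at -0.42 and -0.44. The libraries fall into a few high ones and many low ones, and all genes of a library share its depth and scaling, so these values describe order and were not tested.

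**Figure D2:**
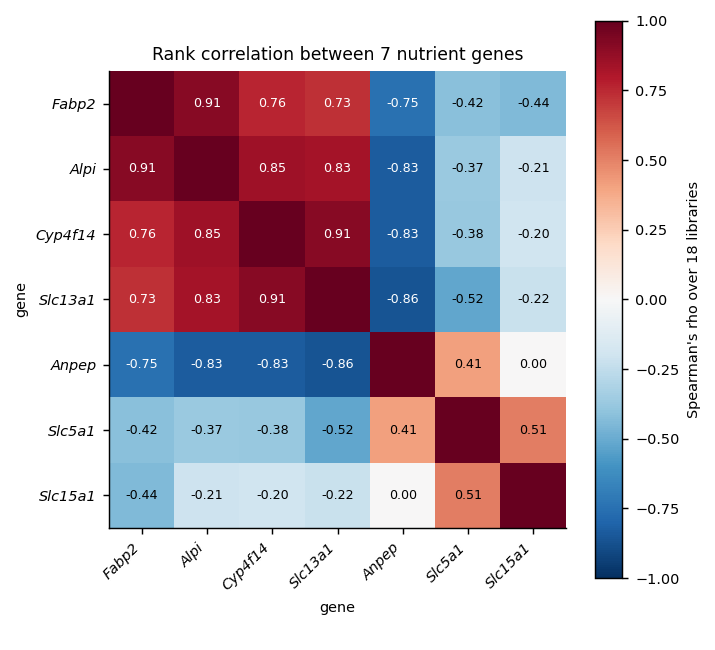
Spearman's rho (colour and number) between the FPKM of each pair of 7 members over 18 libraries. Fabp2, Alpi, Cyp4f14 and Slc13a1 form a block of 0.73 to 0.91, Anpep is opposed to it at -0.75 to -0.86, and Slc5a1 and Slc15a1 stand outside it.

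The mitochondrial share moved with Fabp2, Cyp4f14, Alpi, Slc13a1 and Anpep. In the 6 libraries at 12% or more, Fabp2 had a median of 460 FPKM (49.3 to 775) against 40.7 (17.6 to 334) in the other 12. Cyp4f14 had medians of 37.8 and 1.66, Alpi of 18.8 and 1.65, and Slc13a1 of 7.80 and 0.422 FPKM. For Anpep the order was turned, at 1.3 against 3.38 FPKM. Slc5a1 was at 35 against 45.1 and Slc15a1 at 50.4 against 56.8 FPKM. FPKM is scaled by a total that includes the mitochondrial reads, and the carriers' order depended on this. Capsule library FFZRC_24, with the highest share, had the lowest FPKM of its group for both. By CPM scaled with TMM, the scaling of the tests, its Slc15a1 was 438 against 291 and 280 in FFZRC_5 and FFZRC_12. Its Slc5a1 was then 214 against 215 and 229.

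Over all 18 libraries rho with the mitochondrial share was 0.72 for Fabp2, 0.77 for Alpi, 0.76 for Cyp4f14, 0.77 for Slc13a1, -0.85 for Anpep, -0.67 for Slc5a1 and -0.27 for Slc15a1. A negative rho was common: of 13182 genes with a mean of at least 1 FPKM, 6328 had -0.5 or less. At 0.5 or more there were 1173, and the median was -0.47, lower than the value of Slc15a1. Within the 9 libraries of a set, Slc13a1 kept 0.73 in set C and 0.83 in set X, Cyp4f14 0.68 and 0.72, and Anpep -0.70 and -0.87. For Fabp2 the values within sets were 0.57 and 0.25, and for Alpi 0.62 and 0.40. Without the 2 libraries farthest from the median share, libraries FFZRC_24 and NCX_134, Fabp2 had 0.78 and Anpep -0.84 over the remaining 16. The same check within each set left 7 libraries. In set C rho was then 0.21 for Fabp2, 0.32 for Alpi, 0.46 for Cyp4f14, 0.57 for Slc13a1 and -0.46 for Anpep. In set X it was 0.46, 0.71, 0.79, 0.82 and -0.96. The values of these 5 genes within set C thus lean on few libraries. For Slc5a1 rho within sets was -0.87 in set C and -0.28 in set X, and for Slc15a1 -0.40 and -0.23. By the same check Slc5a1 had -0.89 and 0.50, and Slc15a1 -0.14 and 0.61. The sign for both carriers in set X thus turned when 2 libraries were left out.

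The share and the genes also parted company. Saline library NCX_134, with the second highest share at 18.87%, had 49.3 FPKM of Fabp2 and 1.88 of Alpi, as low as libraries near 6%. Capsule library FFZRX_238, at 10.45%, had 334 and 15.8 FPKM, among the high ones. What part the mitochondrial share has in these levels was not tested.

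**Figure D3:**
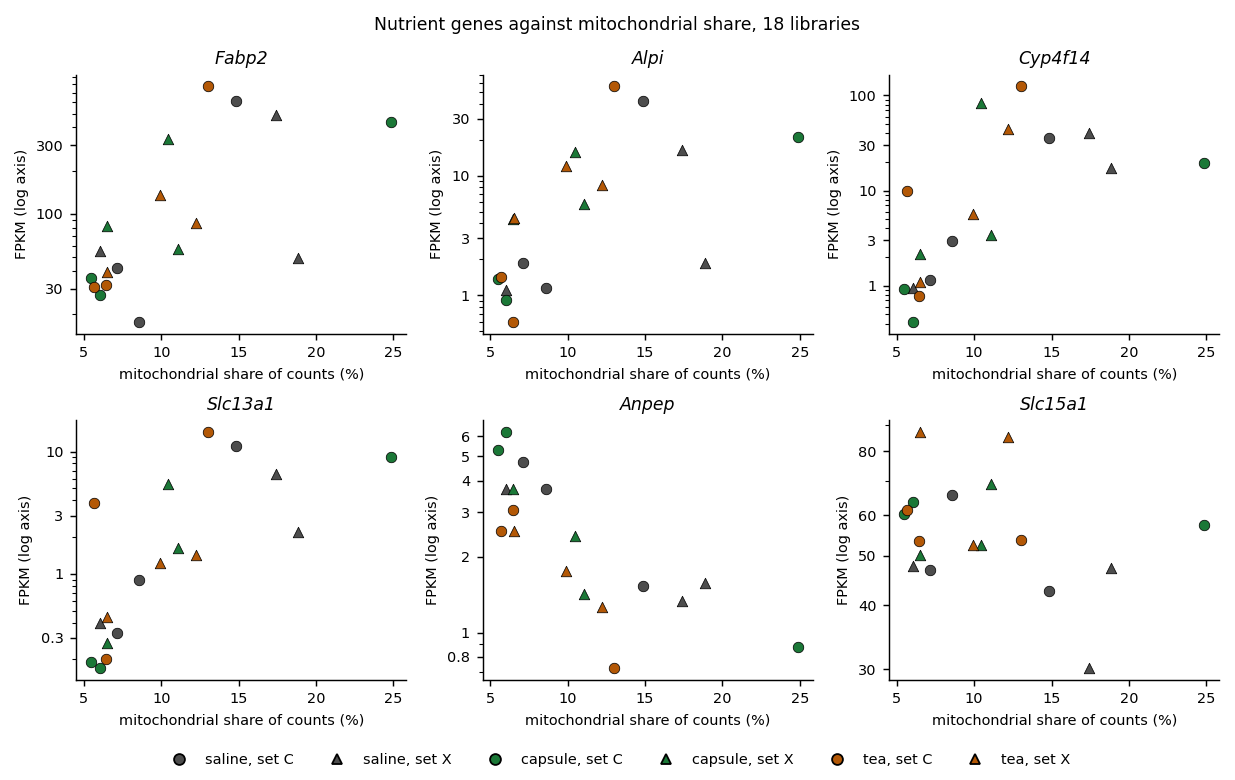
FPKM (log axis) of 6 members against the mitochondrial share of counts (%), 1 point per library, with colour for the treatment and shape for the set. Fabp2, Alpi, Cyp4f14 and Slc13a1 are mostly high above 12%, Anpep is low there, and library NCX_134 at 18.87% has low Fabp2 and Alpi.

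Genes that mark position along the colon moved with the same libraries. Hoxb13, a homeobox gene of the distal colon and rectum, was at 19.3 to 59.5 FPKM in 6 libraries, libraries NCX_147, NCC_17, JHHCGC_48, FFZRC_24, FFZRX_238 and NCX_134. It was 98.5 FPKM in library JHHCGX_256 and 136 to 203 in the other 11. Libraries NCX_147, NCC_17, JHHCGC_48, FFZRC_24 and FFZRX_238 are the 5 with the highest Fabp2, and all 6 are among the 7 with the highest Cyp4f14. The rank correlation (rho) with Hoxb13 was -0.74 for Fabp2, -0.76 for Alpi, -0.86 for Cyp4f14, -0.88 for Slc13a1, 0.77 for Anpep, 0.65 for Slc5a1 and 0.31 for Slc15a1 over 18 libraries. For Slc13a1 it was -0.85 in set C and -0.93 in set X, and for Fabp2 -0.48 and -0.63. Without the 2 libraries of each set farthest from its median Hoxb13, Slc13a1 had -0.71 and -0.86. Fabp2 then had 0.07 and -0.21, so its relation within a set rested on few libraries. Alpi went from -0.77 in set C and -0.60 in set X to -0.54 and -0.14, so its relation in set X did so too.

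Hoxd13, another homeobox gene of the hindgut, gave rho values of -0.85 with Fabp2 and -0.91 with Alpi over 18 libraries. Within sets C and X they were -0.78 and -0.85 for Fabp2, and -0.73 and -0.83 for Alpi. Without the 2 libraries of each set farthest from its median Hoxd13, Fabp2 had -0.54 and -0.82, and Alpi -0.43 and -0.64. Hoxd13 stood at 50.4 to 82.7 FPKM in the 6 low-Fabp2 libraries of set C and at 1.98 to 5.17 in libraries NCC_17, FFZRC_24 and JHHCGC_48. In set X it was 97.2 FPKM in saline library NCX_124 and 4.31 in tea library JHHCGX_129, which had the third highest Fabp2 of that set, 135 FPKM. Hoxb13 itself had a rho of -0.84 with the mitochondrial share, and their separate parts in the members' levels were not tested. Hoxa13, also of the hindgut, was at 13.9 to 31.2 FPKM in all of them.

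**Figure D4:**
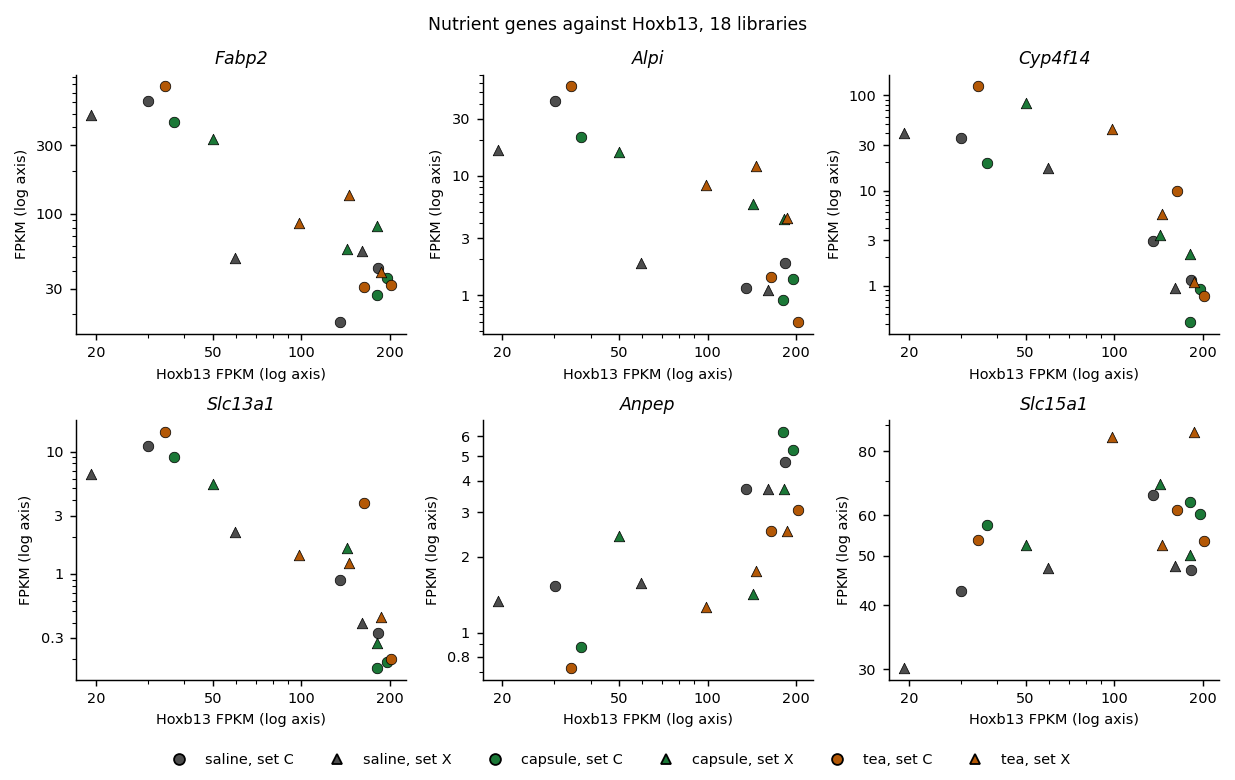
FPKM (log axis) of 6 members against Hoxb13 FPKM (log axis), 1 point per library, with colour for the treatment and shape for the set. The libraries with Hoxb13 under 60 FPKM hold at least 17.3 FPKM of Cyp4f14 and 2.20 of Slc13a1, and Anpep is at most 2.42 in them, and Slc15a1 shows little order.

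Markers of other cell types moved with Fabp2 as well. The summed level of 11 goblet cell genes, such as the mucus genes Zg16 and Tff3, ran from 86.1 to 8037 FPKM with a rho of -0.69 with Fabp2 and -0.93 with the mitochondrial share; 8 of the 11 genes had a rho of -0.5 or less with Fabp2. For 10 immune cell genes it ran from 52.8 to 707 FPKM with a rho of -0.71 with Fabp2, and 10 of 10 were at -0.5 or less. For 10 crypt and cycling genes it ran from 18.2 to 75.5 FPKM with a rho of -0.65, and for 8 smooth muscle genes from 1353 to 13211 FPKM with a rho of 0.49. For the 7 epithelial genes rho was -0.35. Of all 13181 other genes at this level, 33.4% had a rho of -0.5 or less with Fabp2 and 4.99% one of 0.5 or more. In bulk tissue fewer cells of a type and less RNA per cell cannot be told apart, and the part of these cell types in the members' levels was not tested.

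Most markers of the upper small intestine were low. Of 11 genes of the proximal small intestine, of which Fabp1 and Apoa4 are members here, 8 were under 1 FPKM in every library. The 3 others were Dmbt1, a secreted mucosal glycoprotein, at 91.9 to 460 FPKM, and Pdx1 and Fabp1, at most 1.42 and 1.05 FPKM. Sis (sucrase-isomaltase), from the list of peptidases and disaccharidases, had at most 0.055 FPKM, Lct (lactase) at most 0.086 and Slc2a2, the basolateral glucose carrier, at most 0.059, and Gata4, a factor of the upper gut, at most 0.365. Each of these had 0 counts in some libraries: Sis in 14, Lct in 10, Slc2a2 in 11 and Gata4 in 2. Of 4 ileum genes with a mean of at least 1 FPKM, Ces2e and Mep1a had a rho of 0.66 and 0.70 with Fabp2, and Fabp6, the ileal bile acid binding protein, which was at most 5.31 FPKM, had -0.77.

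Other genes of the enterocyte were followed by lists. Among 12 other peptidases and disaccharidases with a mean of at least 1 FPKM, 4 had a rho of 0.5 or more with Fabp2 and 5 one of -0.5 or less. Dpep1, a membrane dipeptidase, ran from 29.2 to 232 FPKM with a rho of 0.85, and the meprin subunit Mep1b from 57.5 to 270 with 0.74. On the opposite side stood Dpp4 at -0.57, a brush border peptidase like Anpep, named after its values were seen.

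Of 13 genes of brush border structure, 6 had a rho of 0.5 or more with Fabp2 and 0 one of -0.5 or less. Cdhr5, a protocadherin of microvilli, ran from 237 to 712 FPKM with a rho of 0.57, and Ezr, which links actin to the membrane, from 213 to 494 with 0.03. Villin (Vil1) had 0.48. Among 14 genes of lipid absorption 2 were at 0.5 or more and 4 at -0.5 or less. The 2 highest were Sar1b, which moves chylomicrons out of the endoplasmic reticulum, at 33.9 to 52.0 FPKM with a rho of -0.21, and Dgat2, which makes triglyceride, at 9.20 to 37.5 FPKM with 0.30. Named after their values were seen, Apob, the chylomicron protein, ran from 1.98 to 7.49 FPKM with 0.23, and Mttp, which loads it with lipid, was at most 0.88 FPKM. Among 12 other sugar, amino acid and peptide transporters 2 were at 0.5 or more and 4 at -0.5 or less; Slc3a1, a subunit of the cystine carrier named after its values were seen, ran from 1.10 to 85.4 FPKM with a rho of 0.90.

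Colonocyte genes were divided in the same way: of 24, 8 had a rho of 0.5 or more with Fabp2 and 6 one of -0.5 or less. Guca2a (guanylin) ran from 285 to 3503 FPKM with a rho of 0.73 and the carbonic anhydrase Car4 from 472 to 2464 with 0.26. Slc9a3, the apical sodium-proton exchanger, had 0.78, and the proton pump gene Atp12a and the sodium channel subunit Scnn1b had -0.78 each; these were named after their values were seen. Hnf4a and Cdx2, the factors whose motifs were searched, had a rho of 0.33 and 0.58 with Fabp2, at 100.9 to 187 and 15.4 to 100.3 FPKM.

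The genes most like the mean standardized profile of the 10 members were ranked by Pearson's r of log2 CPM over 18 libraries among 14147 genes. They were Elmsan1 (0.88), B4galnt1 (0.83), Nuak2 (0.83), Klf4 (0.82), Slc51b (0.82), Alas1 (0.82), Naif1 (0.82), Mapk1ip1l (0.81), Epha2 (0.81) and Slc22a18 (0.81). Klf4, a factor of mature surface epithelium, was at 118 to 325 FPKM, and Slc51b, a subunit of the basolateral bile acid carrier, at 12.8 to 95.1. Because the members oppose each other, this mean blends unlike profiles. For Fabp2 alone, a profile added after the values were seen, the leading genes were Cyp2c65 (0.95), Aldh1a1 (0.94), Alpi (0.94) and Adra2a (0.94); Aldh1a1, which makes retinoic acid, ran from 9.61 to 62.3 FPKM and Cyp2c65, an arachidonic acid P450, from 0.637 to 38.8.

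The study asks, by its groups, whether the tea or the capsule differs from saline. Counts were tested with edgeR's quasi-likelihood test and Benjamini-Hochberg adjustment at 0.05 over all genes tested. Averaged over both sets, the tea against saline had 0 of 10 members past the threshold, with 0.505% of 22380 genes, or 113, called. That count was not stable: it was 1 with no filter on low counts, 21 without TMM scaling and 0 to 414 when single libraries were left out. The capsule against saline had 0 of 10, with 0.00447% of genes called, and the tea against the capsule 0 of 10, with 0%. At an unadjusted p under 0.05 the counts of members were 3, 1 and 0, where 16%, 9.4% and 8.92% of all genes were at that level. In set C 0 of 10 passed in each comparison, with 0%, 0.11% and 0.0143% of genes called for tea against saline, capsule against saline and tea against capsule. Among the 23 genes called for the capsule there, all lower, were 5 lung and 4 cartilage markers. The 3 genes called for tea against capsule there were all lung markers. The part of such foreign transcripts in the treatment folds was not tested. In set X 0 of the 8 tested members passed in each, with 0% of genes called in all 3; Fabp1 and Apoa1 were too low to be tested there. Limma on log2(FPKM + 1) called 0 members in all 12 comparisons, and DESeq2 called 1 in each of 2, given below.

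The carriers came closest. Averaged over both sets, Slc5a1 differed between tea and saline by a log2 fold change of 0.67 ± 0.21 (SE; edgeR adjusted p = 0.122) and Slc15a1 by 0.57 ± 0.20 (adjusted p = 0.168). With the capsule the values were 0.60 ± 0.21 for Slc5a1 (edgeR adjusted p = 0.491) and 0.41 ± 0.20 for Slc15a1 (adjusted p = 0.537), against the same saline libraries. Within set X, tea against saline gave 0.95 ± 0.33 for Slc5a1 (edgeR adjusted p = 0.195) and 0.96 ± 0.29 for Slc15a1 (adjusted p = 0.153). Within set C it gave 0.41 ± 0.23 for Slc5a1 and 0.20 ± 0.25 for Slc15a1 (edgeR adjusted p = 1 for both). The difference of the tea effect between the sets was 0.57 ± 0.41 for Slc5a1 and 0.79 ± 0.39 for Slc15a1 (edgeR adjusted p = 0.931 and 0.834), with 0% of genes called. DESeq2 called Slc5a1 in the averaged tea comparison (0.69, adjusted p = 0.028) and Slc15a1 in set X (0.98, adjusted p = 0.0269). Beside these values, all 7 epithelial markers had positive tea folds with a median of 0.54 and 0 past the threshold; Epcam had 0.40 ± 0.17 (edgeR adjusted p = 0.259), and the part of this in the carriers' values was not tested.

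For the genes of wide range the errors exceeded the folds. The averaged tea comparison gave log2 fold changes of -0.38 ± 1.13 for Fabp2, 0.88 ± 1.45 for Cyp4f14, 0.42 ± 1.23 for Alpi, -0.37 ± 0.39 for Anpep and -0.45 ± 1.23 for Slc13a1 (SE; edgeR adjusted p = 0.703 to 0.915). The capsule gave -0.25 ± 1.13 for Fabp2, -0.02 ± 1.44 for Cyp4f14, -0.12 ± 1.23 for Alpi, 0.25 ± 0.39 for Anpep and -0.20 ± 1.23 for Slc13a1 (edgeR adjusted p = 0.881 to 1). Leaving out single libraries turned the sign of the tea value for Fabp2 (-2.08 to 1.20), Alpi (-1.82 to 2.19), Cyp4f14 (-0.78 to 2.32) and Slc13a1 (-1.35 to 1.02); the libraries that did so were libraries NCC_17 and NCX_147 for Fabp2 and Slc13a1, library JHHCGC_48 for Alpi and libraries JHHCGC_48 and JHHCGX_256 for Cyp4f14. These p-values do not show that the levels were alike under the treatments.

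Set against each other over all treatments, set X and set C had 0 of 10 members past the threshold, with 0.0402% of 22380 genes called. At an unadjusted p under 0.05 there was 1 of 10, beside 7.15% of all genes. It was Fabp1, which had counts only in set C. The difference of the capsule effect between the sets had 0 of 10 members, with 0.0134% of genes called. That of the tea effect had 0 of 10, with 0% of genes called, and 1 of 10 at an unadjusted p under 0.05, beside 6.01% of all genes. This was Apoa1, which was listed at 0 in every tea library of set C.

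**Figure D5:**
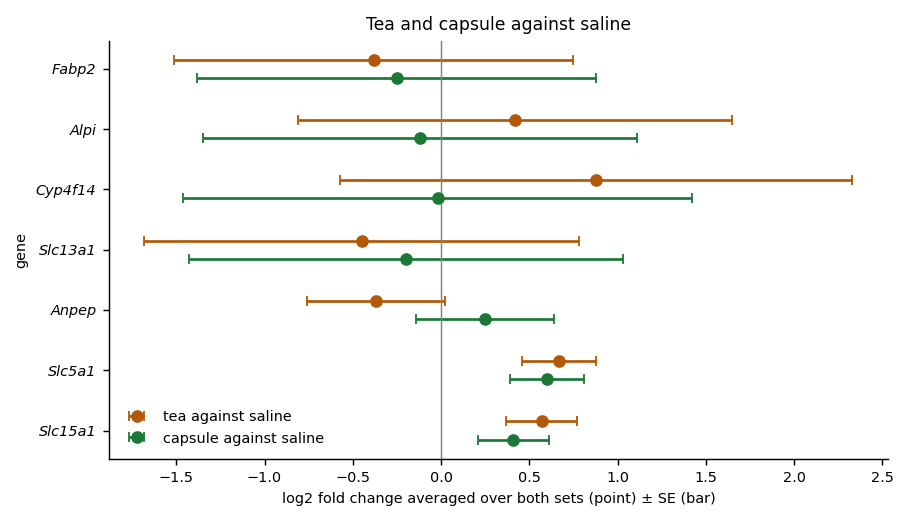
Log2 fold change of the tea and of the capsule against saline, averaged over both sets (points), with its SE (bars), for 7 members. The bars of Fabp2, Alpi, Cyp4f14 and Slc13a1 span 0 widely, those of Slc5a1 and Slc15a1 lie above 0, and no gene shown passed the adjusted threshold with edgeR in this fit, which has no covariate.

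The rest of the absorption programme was little called in the averaged tea comparison. Of 20 tested genes of lipid absorption 15 had positive and 5 negative folds (median 0.20, all genes -0.04), and 1 fell, Abca1, the cholesterol exporter, by 0.74 ± 0.14 on the log2 scale (edgeR adjusted p = 0.04). No gene passed, Abca1 included, when any 1 of libraries NCC_2, NCC_8, NCC_17, NCX_147, JHHCGC_7, JHHCGC_19, JHHCGX_129 and JHHCGX_148 was left out. Cd36, a fatty acid receptor that is also abundant in fat cells, had -2.78 ± 0.63 (edgeR adjusted p = 0.0623), beside 8 of 8 fat cell markers with negative folds and a median of -2.41. Of 16 peptidases and disaccharidases, 14 transporters, 19 genes of vitamin and mineral uptake, 15 of brush border structure and 25 of colonocytes, 0 passed, with medians of 0.25, 0.03, 0.18, 0.45 and 0.15. In the capsule comparison 0 of the same lists passed, and the medians were 0.43, 0.20, 0.29, 0.32 and 0.41, with 0.08 for lipid absorption. Of the 15 brush border genes 12 had positive folds with the tea and 14 with the capsule, and the 2 comparisons share their saline libraries; Ush1c, a scaffold of microvilli, had 0.45 ± 0.15 with the tea (edgeR adjusted p = 0.159) and Vil1 0.54 ± 0.28 with the capsule (adjusted p = 0.556).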

How the data were processed

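Poly(A) RNA was captured on oligo(dT) beads, starting with 5 µg of total RNA, per the labels' protocols. The submitters' processing notes name HISAT2 2.0.4, cutadapt 1.9, edgeR without a version and StringTie 1.3.4d, and give none of them a role. The authors deposited 1 table with a raw read count and an FPKM value for each gene and library; their FPKM equals count over length and library total within a library factor of 0.961 to 1.036. The labels list a human build, but 33866 of 33977 identifiers are in mouse GENCODE M21 (GRCm38) and 30871 have its coordinates. Neither strand use nor the handling of multi-mapped reads is given; antisense genes over Fabp2 and Slc5a1 had at most 0.298 and 0.245 FPKM. The members, the gene lists and the tests were chosen with earlier results of these data known.

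Counts were fitted with edgeR 4.0.16 (R 4.3.3): TMM scaling, filterByExpr with a minimum count of 10, 9 libraries a set (20964 and 20889 genes, 6 residual degrees of freedom) or all 18 (22380 genes, 12). The SE was taken as |log2 fold change| divided by the root of F. Levels are the deposited FPKM. Correlations (scipy 1.17.1) are Spearman's rho of FPKM, or Pearson's r of log2 TMM CPM with a prior count of 2 where so named. Genes were named by rule: all members, the 10 most alike, and in each list the 2 highest and the 2 with the smallest p; others are said to be chosen later, as are the markers named as levels. Alternatives were no filter, no TMM, mitochondrial genes left out, mitochondrial share or Hoxb13 as a covariate, DESeq2 1.42.0, limma 3.58.1 on log2(FPKM + 1), leaving out the libraries with a mitochondrial share of 12% or more, and leaving out each library. In simulated counts the averaged tea comparison (21594 genes) found 28 of the 100 genes given a 2-fold change and 74 of the 100 given 4-fold, and tea in set X (20052 genes) found 2 and 27. The changed genes were drawn at random among expressed genes, with independent noise for each gene. These rates therefore do not carry over to Fabp2, Alpi, Cyp4f14 and Slc13a1, which spread widely and were high together. Depth was 59206980 to 76830278 counts a library.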

Additional observations from a re-analysis of the deposited data

How the results depend on the processing

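No paired analysis was possible because the groups share no replicate numbers. Of 264 recomputed counts of members past the threshold, over 12 comparisons, 260 stayed at 0, among them all 162 that left out 1 library (0 to 0 in each comparison). The 4 others were DESeq2 for the tea in set X (1, Slc15a1) and averaged (1, Slc5a1), and in the averaged tea comparison the mitochondrial share as a covariate (1, Anpep at -0.73, adjusted p = 0.0376) and the Hoxb13 level as a covariate, added after seeing the data (2, Cyp4f14 at 2.42 with adjusted p = 0.0424 and Alpi at 2.01 with adjusted p = 0.0304). The causes were not tested. Hoxb13 is itself a measured outcome.

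Apart from leaving out single libraries, the sign turned in 21 recomputed log2 fold changes. For the averaged tea effect, with the mitochondrial covariate Fabp2 was 0.61 and Slc13a1 1.21, with the Hoxb13 covariate 1.04 and 1.62, and without libraries at 12% or more 0.55 and 1.56. For the averaged capsule effect, with the mitochondrial covariate Fabp2 was 0.07, Cyp4f14 0.77 and Alpi 0.39. With the Hoxb13 covariate they were 0.82, 0.61 and 1.40, Anpep -0.05 and Slc13a1 0.60, and without libraries at 12% or more 0.88, 1.74 and 1.37, with Slc13a1 0.52. DESeq2 gave Cyp4f14 0.01, and limma gave Fabp2 0.01 and Alpi 0.19. Leaving out 1 library turned 27 of 288; the capsule ranges were -1.80 to 1.34 for Fabp2, -1.86 to 1.66 for Alpi, -2.08 to 1.43 for Cyp4f14 and -2.61 to 1.28 for Slc13a1, and the tea ranges -2.08 to 1.20, -1.82 to 2.19, -0.78 to 2.32 and -1.35 to 1.02. Slc5a1 and Slc15a1 kept positive tea folds: 0.52 to 0.77 and 0.49 to 0.68 averaged, 0.66 to 1.15 and 0.76 to 1.20 in set X, 0.17 to 0.56 and 0.08 to 0.38 in set C. By Spearman's rho, 5 of the 10 genes most like the members were shared. By CPM scaled with TMM, Slc5a1 and Slc15a1 were highest in library JHHCGX_256. Over all genes, the averaged tea comparison had 113 calls, and 54 by limma, 1402 by DESeq2, 1236 with the mitochondrial covariate, 1017 with Hoxb13, 3 without libraries at 12% or more, 1 with no filter and 21 without TMM; leaving out 1 library gave 0 to 414, with 0 in 8 of 18. Over the same alternatives the capsule in set C, at 23, had 6 to 406, and 2 to 240 leaving out 1 library.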

Other observations

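Tea library JHHCGX_148 of set X held the highest level of several genes not described above. Clps, the colipase gene, reached 19.2 FPKM there, against a median of 2.18, and Retnlb, a goblet cell gene, 1084 FPKM against a median of 237. The summed level of 10 Paneth cell genes was also highest there, at 1290 FPKM against a median of 74.1. Among them Ang4 reached 926 FPKM against a median of 15.5. The same library had the highest Slc15a1, 87.1 FPKM, with Fabp2 at 39.5.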
